A study of Schizosaccharomyces pombe with 18 samples.

Results

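Loss of the histone deacetylase Clr3 was set against loss of Clr1 or Clr2 in fission yeast (Schizosaccharomyces pombe), across the 6665 of 7018 genes whose level passed a minimum, in 9 of the 18 libraries of the study. The clr3D strain (clr3D::kanMX6 ade6-210) was compared with the pooled clr1D (clr1D::KanMX4 ade6-210/216?) and clr2D (clr2D::his7+ ade6-216) strains. All 3 strains are h- and carry arg3D, his3D, leu1-32 and ura4-D18. The wild type (WT), also h- with ura4-D18 and leu1-32, carries ade6-210 and lists its other alleles as his3-D1 and arg3-D4. It stayed out of the fit, and its levels are given beside the others with no test. Each genotype is 1 strain with 3 biological replicates, grown as 25 ml cultures in rich YES medium at 25 °C and 170 rpm, and total RNA was sequenced after removal of ribosomal RNA. A deletion and any other difference of its strain, such as the ade6 allele, cannot be told apart, and differences between the forms of the arg3 and his3 alleles add to this for WT.

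Clr1, Clr2 and Clr3 are subunits of SHREC, a nuclear complex that also holds the chromatin remodeler Mit1 and the HP1-family protein Chp2. SHREC is known for silencing genes at the centromeres, the mating-type region and the chromosome ends, where nucleosomes carry methylated histone H3. Clr3 removes acetyl groups from histone H3 tails, and Clr1 and Clr2 link the deacetylase to the rest of the complex. The comparison asks whether losing the enzyme leaves the same transcriptome as losing either of the subunits that link it.

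Levels are FPKM (fragments per kilobase of transcript, relative to the fragments sequenced) made by the authors and then scaled between libraries. Depths recovered from the FPKM values ran from 37.85 to 63.33 M reads in clr3D, 35.35 to 74.62 in clr1D, 41.98 to 82.8 in clr2D and 46.54 to 101.85 in WT. Fold changes are limma estimates on log2(level + 1), given with their standard error (SE). Because of the added 1 they understate the change of weakly expressed genes. A gene is called at a Benjamini-Hochberg adjusted p under 0.05, with no minimum fold. Whether the counting used strand is not given in the sources used here, so reads of overlapping genes cannot be told apart. Positions are those of the deposited table (build ASM294v2).

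The deleted genes were read first. The clr3 level (II 254715 to 257138) was 5.73, 5.31 and 3.95 in the clr3D libraries, against 35.6, 37.5 and 37.3 in clr1D, 36.5, 37.1 and 37.1 in clr2D, with 36.4, 36.3 and 36.1 in WT. The clr3D libraries lay far below the others, as the label states, and SPNCRNA.1331, a non-coding RNA whose interval overlaps clr3, was lower with it (log2 fold change -2.46 ± 0.07, SE). The clr1 level was 13.1, 12.3 and 12.5 in clr3D, against 2.46, 2.64 and 2.24 in clr1D and 13.2, 12.9 and 12.6 in clr2D. The clr2 level was 31.2, 30.1 and 28.6 in clr3D, against 27.8, 26.7 and 28 in clr1D and 15.6, 14.9 and 15.3 in clr2D, with 19.9, 19.6 and 20.6 in WT. Reads of clr2 were thus above WT in clr3D and in clr1D, and clr2D kept a large part of the WT level. The pooled log2 fold change was 0.98 ± 0.04 for clr1 and 0.52 ± 0.03 for clr2, and against clr1D alone, where clr2 is not deleted, clr2 was higher in clr3D by 0.12 (adjusted p = 0.023). The other 2 subunit genes, mit1 and chp2, did not pass the test, with log2 fold changes of -0.01 ± 0.03 (adjusted p = 0.78) and -0.07 ± 0.04 (adjusted p = 0.24).

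The clr3D transcriptome differed from the pooled clr1D and clr2D transcriptomes at many genes, mostly by little. Of the 6665 genes tested, 3301 were called (49.5%), 1669 of them higher in clr3D (25.0%) and 1632 lower (24.5%). The median absolute log2 fold change among the called genes was 0.16, and a log2 fold change of 1 or more in size was seen for 12 of the rises and for 6 of the falls. In 1103 called rises (16.5% of the genes tested) all 3 clr3D libraries lay above all 6 others, and in 1094 called falls (16.4%) all 3 lay below. The balance of rises and falls rests on the scaling. With FPKM as deposited, where the median of all genes shifts by -0.032 on the log2 scale, 1216 of 3336 called genes were higher in clr3D (36.5%), against 50.6% after scaling.

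The genotypes of the pooled side differed little from each other. Only 36 genes were called between clr1D and clr2D (0.54%), 8 higher and 28 lower in clr1D, and 294 had an unadjusted p under 0.05. The same fit called 2941 genes between clr3D and clr1D (44.1%) and 2732 between clr3D and clr2D (41.0%), comparisons that share the clr3D libraries. Without the replicate block they called 1811 and 1553 genes, and without clr2D replicate 1 the comparison with clr2D called 1768. The median absolute log2 difference over all genes tested was 0.096 for clr3D minus clr1D, 0.09 for clr3D minus clr2D and 0.025 for clr1D minus clr2D, beside a median SE of 0.035 in each.

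**Figure D1:**
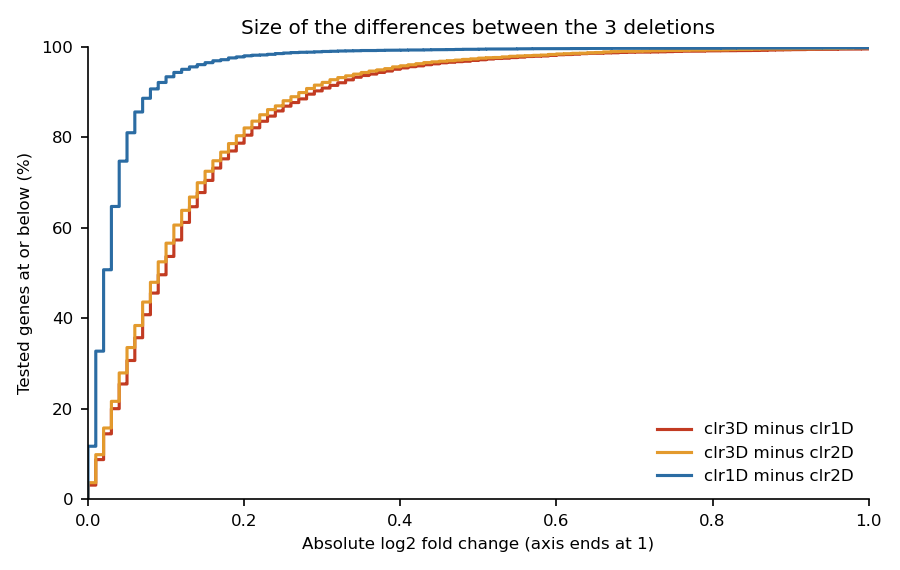
Percentage of the 6665 tested genes (vertical axis) whose absolute log2 fold change is at or below the value on the horizontal axis, for 3 pairs of deletion strains. The curve for clr1D minus clr2D climbs much earlier (median 0.025) than those for clr3D minus clr1D (0.096) and clr3D minus clr2D (0.09), which share the clr3D libraries.

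WT levels were set beside these differences as a description. Of the 1103 separated rises, the WT mean lay between the clr3D mean and the pooled mean in 707, below both in 282 and above both in 114. Of the 1094 separated falls, it lay between them in 734, above both in 246 and below both in 114. On the log2(level + 1) scale the WT mean was nearer to the clr3D mean in 393 of these rises and nearer to the pooled mean in 710, and in the falls it was nearer to clr3D in 353 and to the pooled mean in 741. Among the 51 separated rises of at least 1.5-fold, WT was nearer to clr3D in 28 and nearer to the pooled mean in 23, and among the 52 separated falls of that size it was nearer to clr3D in 20 and to the pooled mean in 32.

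**Figure D2:**
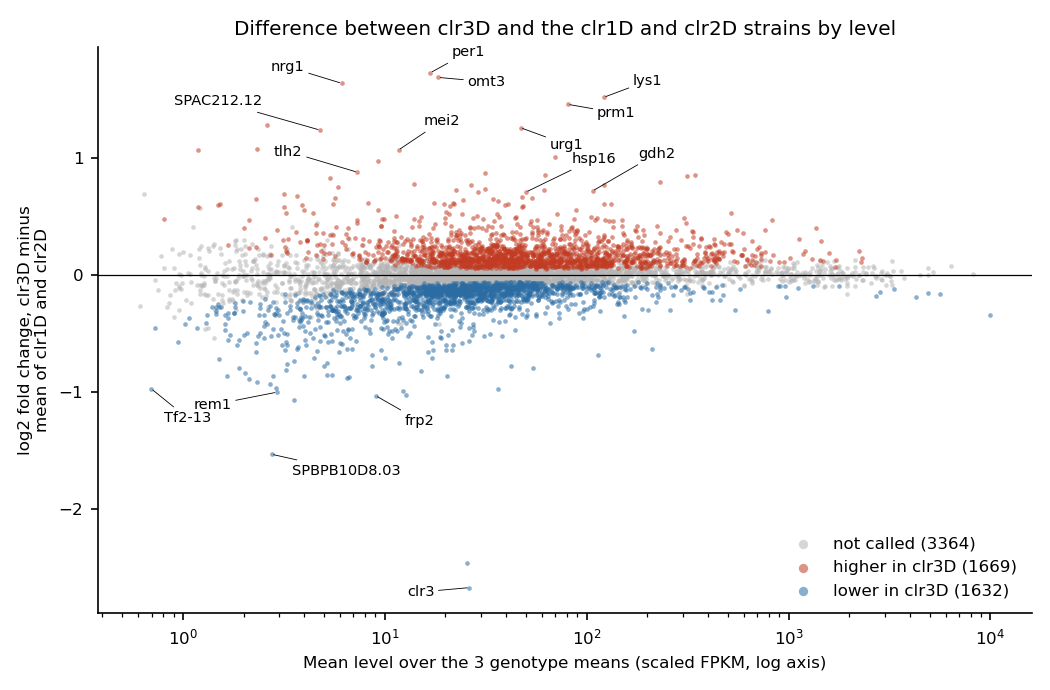
Log2 fold change of clr3D minus the mean of clr1D and clr2D (vertical axis) against the mean level (horizontal log axis, scaled FPKM) for the 6665 tested genes, with red for the 1669 called higher and blue for the 1632 called lower in clr3D. Most called genes lie close to 0, and the labelled genes lie at the edges, from per1 at 1.73 to clr3 at -2.67.

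The largest rises belonged to a small set of loci. Beside centromere 1, the amino acid permease gene per1 (I 3748767 to 3751729) stood at 29.9, 36.7 and 27.9 in clr3D, against 5.56, 6.63 and 4.94 in clr1D and 12.9, 15 and 12 in clr2D, with 27.5, 25.8 and 21.2 in WT. The clr3D libraries were near WT and lay above every clr1D and clr2D library, and clr1D was the lowest group. The pooled log2 fold change of 1.73 ± 0.03 (adjusted p = 4.3e-08) averages 2.27 ± 0.03 against clr1D and 1.18 ± 0.03 against clr2D, and clr1D was lower than clr2D by 1.10 on the log2 scale (adjusted p = 9.8e-07).

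The neighbouring lys1 (I 3739076 to 3743492), which encodes an enzyme of lysine synthesis, was at 181, 217 and 185 in clr3D, against 29.4, 30.9 and 35.4 in clr1D and 132, 131 and 155 in clr2D, with 192, 194 and 180 in WT. Its pooled rise of 1.52 ± 0.07 (adjusted p = 7.4e-06) comes mostly from clr1D: the log2 fold change was 2.57 ± 0.08 against clr1D and 0.47 ± 0.08 against clr2D (adjusted p = 0.0024). Where clr1D and clr2D share a coefficient, their difference counts as spread and lys1 is not called (adjusted p = 0.069). The interval of prm1, a gene for a cell fusion protein, contains lys1, and its values moved with it (1.46 ± 0.07, or adjusted p = 0.066 with the shared coefficient). On the other side of the centromere, emc5 (I 3790912 to 3791756), a subunit of a membrane complex of the endoplasmic reticulum, was at 63.8, 62.4 and 64.9 in clr3D, against 38.5, 35.1 and 38.8 in clr1D and 42.3, 39.5 and 44.1 in clr2D. Its groups did not overlap (0.67 ± 0.02, adjusted p = 2.9e-06), and the WT libraries were at 64.7, 65.1 and 67.1. The emc5 interval overlaps that of rad50, a DNA repair gene that also rose (0.46 ± 0.02).

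Over all 3 centromeres and their flanks, 24 of 56 tested genes rose in clr3D (42.9%) and 2 fell (3.57%), beside 25.0% and 24.5% over all genes tested. Their median log2 fold change was 0.09, beside 0.002 over all genes tested. Centromere 1 had 11 rises (57.9%) and no fall among 19 genes (6 rises with FPKM as deposited, and 6 with the shared coefficient). Centromere 2 had 4 rises (25.0%) and 1 fall (6.25%) among 16. Centromere 3 had 9 rises (42.9%) and 1 fall (4.76%) among 21 (5 and 1 without clr3D replicate 1). A further 73 genes of these intervals did not pass the minimum level. The non-coding RNA SPNCRNA.373 (II 1640114 to 1641543), inside centromere 2, was at 4.04, 3.93 and 3.83 in clr3D, against 3.26, 2.55 and 3.43 in clr1D and 3.19, 2.48 and 3.04 in clr2D, with 0.609, 0.265 and 0.479 in WT. All 3 deletions were thus well above WT, and clr3D was slightly above the other 2 strains (0.31 ± 0.07, adjusted p = 0.0076). Beside centromere 3, the checkpoint kinase gene chk1 rose by 0.51 ± 0.03 and meu27, whose interval overlaps it, by 0.48 ± 0.04. Both were lower in clr2D than in clr1D.

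**Figure D3:**
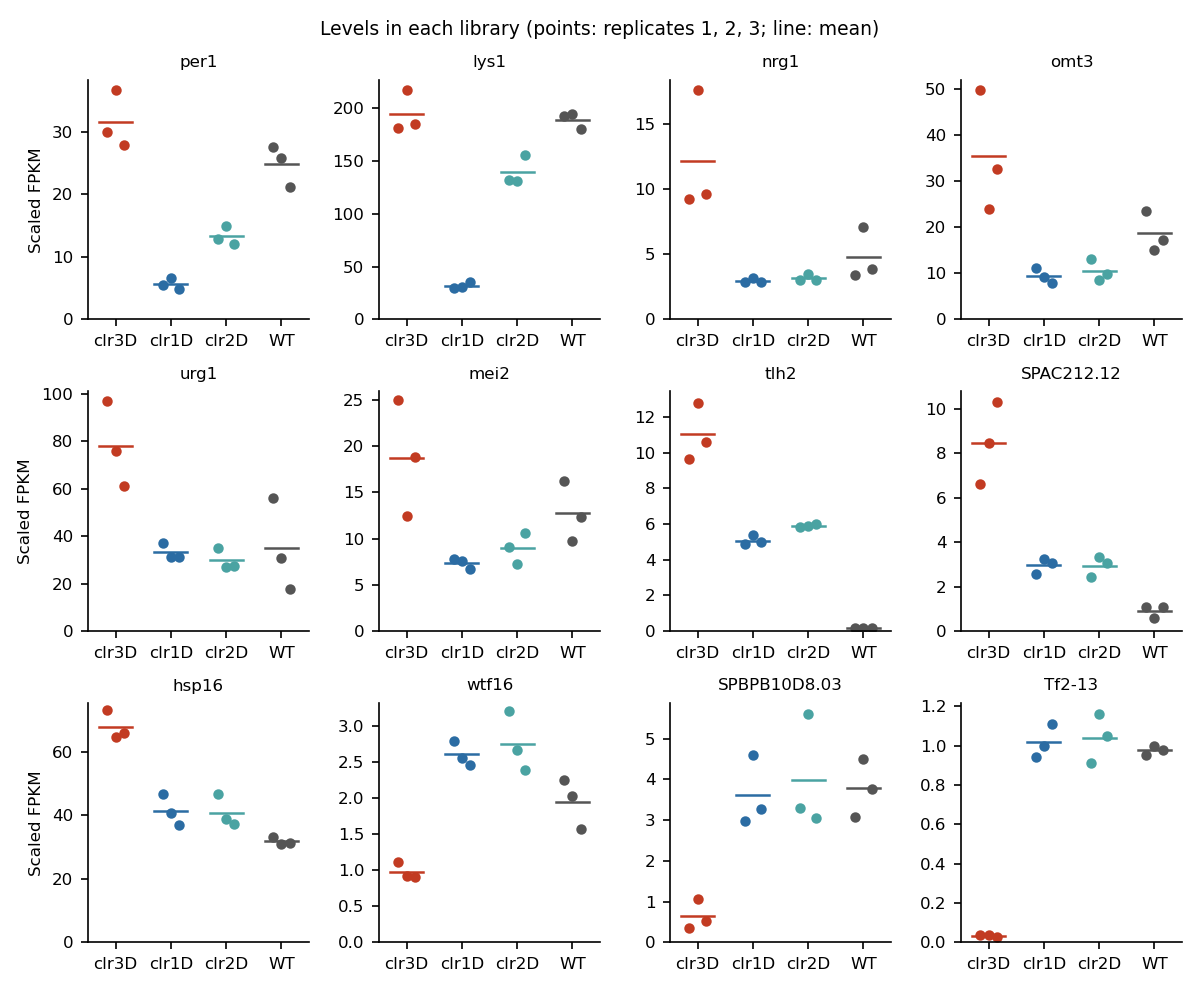
Scaled FPKM (vertical axes, starting at 0) of 12 genes in each library, with points for replicates 1, 2 and 3 from left to right within clr3D, clr1D, clr2D and WT, and a line at each group's mean. For per1 and lys1 the clr3D points sit near WT and above clr1D and clr2D, for tlh2 and SPAC212.12 they sit farther from WT than those of the other deletions, and for Tf2-13 only the clr3D points are near 0.

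Near the chromosome ends, clr3D was higher at more genes than it was lower. Of 187 genes overlapping the outermost 100 kb on either side of chromosome I or chromosome II, 116 were tested. Of these 48 rose in clr3D (41.4%) and 21 fell (18.1%), beside 25.0% and 24.5% over all genes tested. Their median log2 fold change was 0.10. Of the genes tested, 2 reached the minimum level only in clr3D, both called as rises, and they had to differ to be tested. The helicase gene tlh2 (II 4526885 to 4532899), at the right end of chromosome II, was at 9.67, 12.8 and 10.6 in clr3D, against 4.88, 5.36 and 4.97 in clr1D, 5.81, 5.86 and 6.01 in clr2D, with 0.149, 0.189 and 0.182 in WT. Every deletion library was far above WT, and the clr3D mean was 2.01 times the pooled mean (log2 fold change 0.88 ± 0.06, adjusted p = 3.7e-05). Its near-identical copy tlh1 did not pass the minimum, at 0.637, 0.826 and 0.737 in clr3D, 0.592, 0.574 and 0.574 in clr1D, 0.582, 0.621 and 0.568 in clr2D, with 0.0113, 0.00787 and 0.0141 in WT. How reads were split between such copies is not known.

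SPAC212.12 (I 15855 to 16226), annotated as a GPI-anchored protein and located at the left end of chromosome I, was at 6.6, 8.46 and 10.3 in clr3D, against 2.58, 3.22 and 3.08 in clr1D, 2.43, 3.33 and 3.06 in clr2D, with 1.07, 0.598 and 1.09 in WT. The clr1D and clr2D libraries overlapped each other, and all lay below clr3D (1.24 ± 0.07, adjusted p = 2.1e-05). The neighbouring SPAC212.06c, a helicase-like gene chosen after its values were seen, was at 7.17, 9.5 and 6.99 in clr3D, against 4.28, 4.54 and 3.86 in clr1D and 4.56, 5.2 and 5.12 in clr2D (0.66 ± 0.07, adjusted p = 0.0002). Farther in, SPAPJ695.02 (I 74452 to 76721) followed another order. It was at 2.29, 2.32 and 2.43 in clr3D, against 0.924, 0.402 and 0.521 in clr1D, 0.82, 0.289 and 0.695 in clr2D, with a mean of 1.63 ± 0.387 in WT (SD, n = 3). The clr3D libraries lay above all others (1.07 ± 0.12, adjusted p = 0.00033). SPAPJ695.02 reached the minimum level only in clr3D, so it had to differ to be tested. At the right end of chromosome I, the isomerase gene SPAC186.06 (I 5542290 to 5543031) was at 42.0, 44.9 and 49.0 in clr3D, against 26.2, 20.1 and 27.3 in clr1D and 27.2, 19.9 and 26.3 in clr2D, with 18.7, 19.6 and 18.3 in WT. Its clr3D libraries lay above all others (0.87 ± 0.08, adjusted p = 0.0001).

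By their counts the ends of chromosome II went opposite ways, with the falls of the left end mostly 50 to 100 kb from it. At the right end 14 of 25 tested genes rose in clr3D (56.0%) and none fell, beside 25.0% and 24.5% over all genes tested. Their median log2 fold change was 0.27, beside 0.002 over all genes tested. Of the 18 genes 50 to 100 kb from that end, 12 rose, with a median of 0.47. The amino acid permease gene nrg1 (II 4457661 to 4459842) was at 9.23, 17.6 and 9.64 in clr3D, against 2.84, 3.17 and 2.86 in clr1D, 3.01, 3.51 and 3.05 in clr2D, with 3.38, 7.08 and 3.89 in WT. Replicate 2 was high in both clr3D and WT, and all clr3D libraries were above every other (1.64 ± 0.12, adjusted p = 5.8e-05). Nearer the end, SPBPB2B2.06c, annotated as a phosphatase, was at 6.8, 4.45 and 3.43 in clr3D, against 1.82, 0.69 and 1.17 in clr1D and 2.79, 0.875 and 1.39 in clr2D (1.28 ± 0.12, adjusted p = 0.00015). SPBPB2B2.05, a glutamine amidotransferase family gene, was at 4.65, 3.81 and 3.83 in clr3D, against 1.67, 1.01 and 1.03 in clr1D and 2.57, 1.39 and 1.06 in clr2D (1.08 ± 0.10, adjusted p = 0.00013). Just outside this interval, SPBC1289.14, an adducin-like gene chosen after its values were seen, was at 37.1, 36.1 and 39.6 in clr3D, against 31.2, 24.1 and 28.6 in clr1D and 33.2, 23.7 and 31.1 in clr2D, with 1.94, 1.69 and 1.64 in WT (0.39 ± 0.06, adjusted p = 0.0013).

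At the left end of chromosome II, 5 of 23 tested genes rose in clr3D (21.7%) and 11 fell (47.8%), with a median log2 fold change of -0.13 (5 rises and 5 falls without the replicate block). Of 19 genes 50 to 100 kb from that end, 3 rose and 10 fell, with a median of -0.33. The 2 tested genes 10 to 25 kb from it both rose (median 0.61). Some falls are overlapping pairs, such as SPNCRNA.289 with SPNCRNA.1303 and SPBPB10D8.02c with SPNCRNA.1307. SPBPB10D8.03 (II 87727 to 89029) was at 0.364, 1.06 and 0.534 in clr3D, against 2.98, 4.59 and 3.27 in clr1D, 3.29, 5.61 and 3.05 in clr2D, with 3.08, 4.51 and 3.76 in WT. Its pooled mean was 5.81 times the clr3D mean, and the groups did not overlap (-1.53 ± 0.08, adjusted p = 1.3e-05). The adjacent arylsulfatase gene SPBPB10D8.02c was at 4.73, 11.7 and 5.23 in clr3D, against 10.6, 21.1 and 13.2 in clr1D and 11.3, 21.5 and 11.6 in clr2D. Replicate 2 was the highest of its group in every genotype, so the pooled libraries overlapped although each clr3D library was below both others of its number (-0.99 ± 0.06, adjusted p = 3e-05). The ends of chromosome III, which hold ribosomal DNA, had 22 rises (22.4%) and 28 falls (28.6%) among 98 genes, with a median of -0.02. These shares are near the 25.0% and 24.5% over all genes tested.

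**Figure D4:**
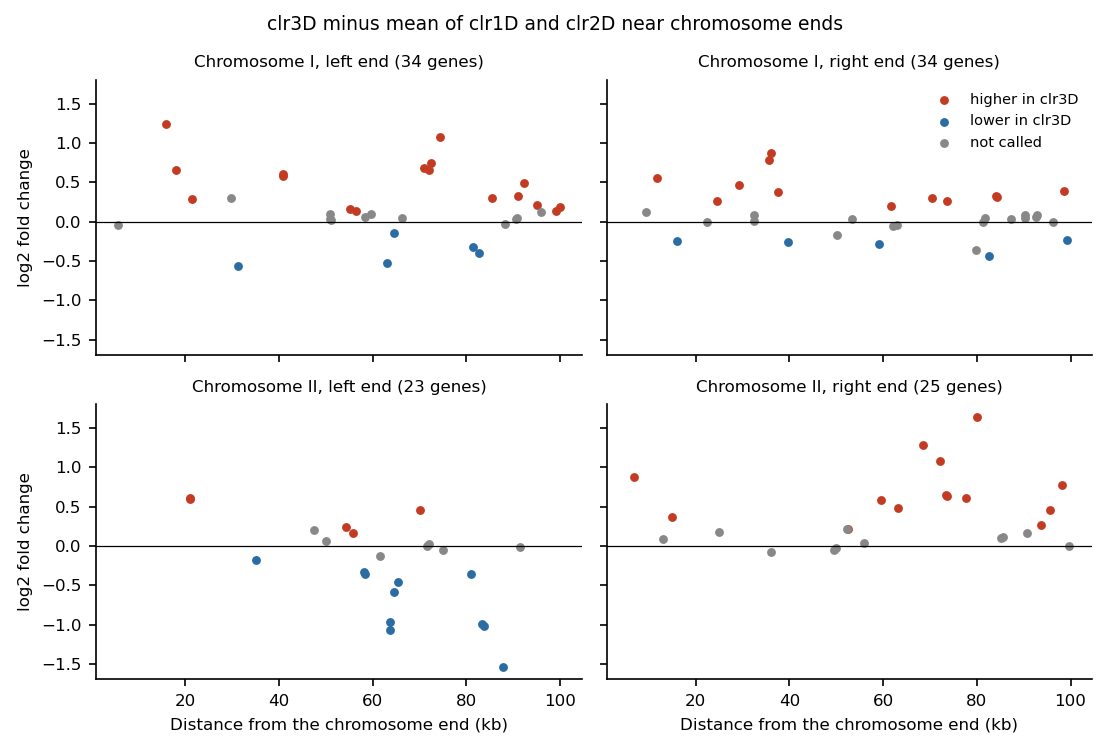
Log2 fold change of clr3D minus the mean of clr1D and clr2D (vertical axes) against distance from the chromosome end in kb (horizontal axes) for the 116 tested genes at the ends of chromosomes I and II, with red for genes called higher in clr3D, blue for lower and grey for not called. The right end of chromosome II has 14 called rises and no fall, and the left end of chromosome II has 11 called falls and 5 rises.

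Some genes of sexual differentiation had large rises. Of 16 shared mating genes tested, 10 rose in clr3D (62.5%) and 4 fell (25.0%), beside 25.0% and 24.5% over all genes tested. Their median log2 fold change was 0.19, and the highest, that of mei2, was 1.07. The gene mei2, for the RNA-binding protein that starts meiosis, was at 25.0, 12.4 and 18.8 in clr3D, against 7.81, 7.61 and 6.68 in clr1D, 9.04, 7.27 and 10.6 in clr2D, with 16.2, 9.71 and 12.3 in WT. All clr3D libraries were above the 6 others but spread widely (1.07 ± 0.14, adjusted p = 0.00072). The adjacent non-coding RNA omt3 (I 4516070 to 4517070), annotated as a transcript of meiosis-specific foci, was at 49.8, 23.9 and 32.5 in clr3D, against 11.1, 9.22 and 7.84 in clr1D, 13.1, 8.51 and 9.84 in clr2D, with 23.6, 15 and 17.3 in WT. It gave the second largest rise of all (1.69 ± 0.11, adjusted p = 3.1e-05). The gene ste11, for the transcription factor of sexual differentiation, was at 41.8, 23.6 and 28.8 in clr3D, against 21.6, 16.6 and 14.1 in clr1D, 21.4, 15.9 and 19.7 in clr2D, with 40.9, 21.1 and 25.3 in WT (0.73 ± 0.10, adjusted p = 0.00061).

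In mei2, omt3 and ste11, replicate 1 was the highest clr3D library. Further rises were those of ste4 (0.42 ± 0.04), which acts in the pheromone pathway, and the pheromone-pathway kinase gene spk1 (0.20 ± 0.04). The falls included ste6, for an activator of Ras (-0.36 ± 0.05, adjusted p = 0.0011). Among 6 genes of M cells, the mating type of these h- strains, the M-factor gene mfm2 was at 111, 76.0 and 81.9 in clr3D, against 57.5, 39.1 and 44.0 in clr1D, 59.5, 41.1 and 52.8 in clr2D, with 99.1, 106 and 94.8 in WT (0.86 ± 0.04, adjusted p = 1.3e-05). The M-cell list had 2 rises (33.3%) and 1 fall (16.7%), and of 4 P-cell genes 1 fell (25.0%). Over all genes tested 25.0% rose and 24.5% fell, and lists this small say little beside these shares. Meiotic genes of defined role had 5 rises (17.9%) and 8 falls (28.6%) among 28 and a median of -0.02. Their shares are not far from those over all genes tested. The meiotic cyclin gene rem1 was at 1.73, 1.11 and 1.24 in clr3D, against 4.46, 3.78 and 3.03 in clr1D, 3.82, 3.69 and 3.41 in clr2D, with 1.99, 1.52 and 1.28 in WT. Here clr3D was near WT and clr1D and clr2D were high (-1.0 ± 0.08, adjusted p = 8.3e-05), and the overlapping non-coding RNA SPNCRNA.571 moved with it (-0.91 ± 0.08).

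The wtf family, meiotic drivers of which most copies lie on chromosome III, had falls and no rise. Of 25 genes 23 were tested, 14 fell in clr3D (60.9%, beside 24.5% over all genes tested) and none rose, and the median log2 fold change was -0.30. With quantile normalization 13 fell and 2 rose. The lowest was wtf16 (III 1739338 to 1740925), at 1.12, 0.923 and 0.908 in clr3D, against 2.8, 2.56 and 2.47 in clr1D, 3.21, 2.67 and 2.4 in clr2D, with 2.25, 2.03 and 1.57 in WT (-0.89 ± 0.07, adjusted p = 8.2e-05). The gene wtf20 was at 1.52, 1.33 and 1.46 in clr3D, against 3.88, 2.99 and 3.17 in clr1D and 4.16, 3.1 and 3.43 in clr2D (-0.86 ± 0.07, adjusted p = 7.2e-05). Its WT libraries, at 2.71, 1.9 and 2.44, lay above clr3D and below clr1D and clr2D, as those of wtf16 did. The copies resemble each other, so the share of reads each received is uncertain. Weakly expressed genes in general fell more often: of 1013 genes with a mean level under 10, 102 rose and 356 fell.

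A retrotransposon gave the largest ratio of means among the genes tested. Tf2-13 (III 2320320 to 2324320) was at 0.036, 0.0367 and 0.0267 in clr3D, against 0.94, 1.0 and 1.11 in clr1D, 0.913, 1.16 and 1.05 in clr2D, with 0.951, 0.996 and 0.98 in WT. The pooled mean was 31.1 times the clr3D mean, and the clr3D libraries stood apart from all others including WT (-0.97 ± 0.12, adjusted p = 0.00039, or -3.08 with a pseudocount of 0.1). It passed the minimum level only through clr1D and clr2D, so it had to differ to be tested. Whether the copy is present in the clr3D strain was not tested, and a strain difference and the deletion cannot be told apart. Of the other 12 Tf2 copies 1 was tested, Tf2-11, at 8.53, 10.7 and 8.71 in clr3D, against 10.1, 11.8 and 11.8 in clr1D, 9.1, 11.8 and 10.5 in clr2D, with 3.73, 5.94 and 4.25 in WT. Its log2 fold change of -0.20 ± 0.05 (adjusted p = 0.0083) was not called without the replicate block (adjusted p = 0.12).

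Among genes of the nitrogen response more rose than fell in clr3D. Of 27 tested 16 rose (59.3%) and 4 fell (14.8%), beside 25.0% and 24.5% over all genes tested. Their median log2 fold change was 0.14 (12 rises and 1 fall without the replicate block). The uracil-regulated genes lie together on chromosome I. There urg1 (I 1835270 to 1837060), annotated as a GTP cyclohydrolase II, was at 97.1, 76.1 and 61.3 in clr3D, against 37.2, 31.4 and 31.4 in clr1D, 34.9, 27.1 and 27.5 in clr2D, with 56.0, 30.9 and 17.7 in WT. The clr3D libraries lay above all WT libraries too, which themselves spread widely (1.26 ± 0.06, adjusted p = 1.3e-05). Its neighbour urg2, for a putative uracil phosphoribosyltransferase, was at 125, 109 and 83.4 in clr3D, against 58.3, 50.1 and 51.6 in clr1D and 59.1, 44.7 and 45.8 in clr2D (1.01 ± 0.07, adjusted p = 4.5e-05). In this cluster urg3 rose by 0.35 ± 0.04 and uck2 by 0.71 ± 0.05, and these genes were chosen after their values were seen.

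Among the other nitrogen genes, isp7, for an oxygenase of amino acid uptake control, was at 44.9, 43.1 and 41.9 in clr3D, against 28.1, 23.2 and 26.4 in clr1D and 27.5, 22.9 and 25.2 in clr2D (0.74 ± 0.04, adjusted p = 1.4e-05). The glutamate dehydrogenase gene gdh2, also chosen after its values were seen, was at 136, 154 and 145 in clr3D, against 86.8, 76.0 and 94.1 in clr1D, 88.2, 81.7 and 102 in clr2D, with a mean of 233 ± 21.8 in WT (SD, n = 3) (0.72 ± 0.06, adjusted p = 0.00012). All 3 deletions were below WT for gdh2, and clr3D was the closest to it.

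Chaperone genes rose together, each by little. Of 18 tested, 15 rose in clr3D (83.3%, beside 25.0% over all genes tested), none fell, and the median log2 fold change was 0.21 (15 rises and 1 fall with FPKM as deposited). The gene hsp104, for a protein disaggregase, was at 66.2, 73.5 and 72.2 in clr3D, against 55.5, 58.0 and 53.8 in clr1D, 50, 57.5 and 52.4 in clr2D, with 44.7, 54.8 and 55.9 in WT (0.37 ± 0.03, adjusted p = 9.7e-05). Its mitochondrial counterpart hsp78 rose by 0.39 ± 0.03, the Hsp90 co-chaperone genes sti1 and wos2 by 0.39 ± 0.04 and 0.37 ± 0.03, and the Hsp70 gene ssa1 by 0.36 ± 0.03. The small heat-shock protein gene hsp16, listed with the core stress genes, was at 73.2, 64.5 and 65.9 in clr3D, against 46.6, 40.6 and 36.9 in clr1D, 46.7, 38.7 and 37.2 in clr2D, with 33.2, 30.9 and 31.3 in WT (0.71 ± 0.03, adjusted p = 9.9e-06). The clr3D libraries were the highest, and clr1D and clr2D were above WT.

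Stress genes as a whole did not go one way. Of 19 core stress genes 6 rose (31.6%) and 3 fell (15.8%), beside 25.0% and 24.5% over all genes tested (6 rises and 7 falls with FPKM as deposited). The metallothionein gene zym1 rose (0.40 ± 0.04), and the sulfiredoxin gene srx1 (-0.41 ± 0.03) and the thioredoxin gene trx2 (-0.37 ± 0.02) fell. Of 21 glutathione and redox genes 6 rose (28.6%) and 5 fell (23.8%), near the shares over all genes tested (3 rises and 4 falls without the replicate block). Of the glutathione transferases, gst2 was at 87.1, 80.7 and 73.4 in clr3D, against 136, 131 and 122 in clr1D, 147, 119 and 124 in clr2D, with 130, 118 and 109 in WT (-0.68 ± 0.04, adjusted p = 2e-05). The fall of gst1 was -0.63 ± 0.07, and the glutaredoxin gene grx1 rose by 0.35 ± 0.03. Proteasome subunit genes had 18 rises and 3 falls among 36, with a median of 0.05 (11 and 7 from unscaled FPKM, 10 and 7 after quantile normalization). The core particle gene pre10 was at 169, 171 and 176 in clr3D, against 139, 145 and 140 in clr1D and 140, 147 and 140 in clr2D (0.27 ± 0.02, adjusted p = 8.5e-05). Of 141 cytosolic ribosomal protein genes 7 rose (4.96%) and 4 fell (2.84%), shares below the 25.0% and 24.5% over all genes tested, with a median of 0.00. That count moved to 4 and 18 with FPKM as deposited and to 25 and 2 without clr3D replicate 2.

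**Figure D5:**
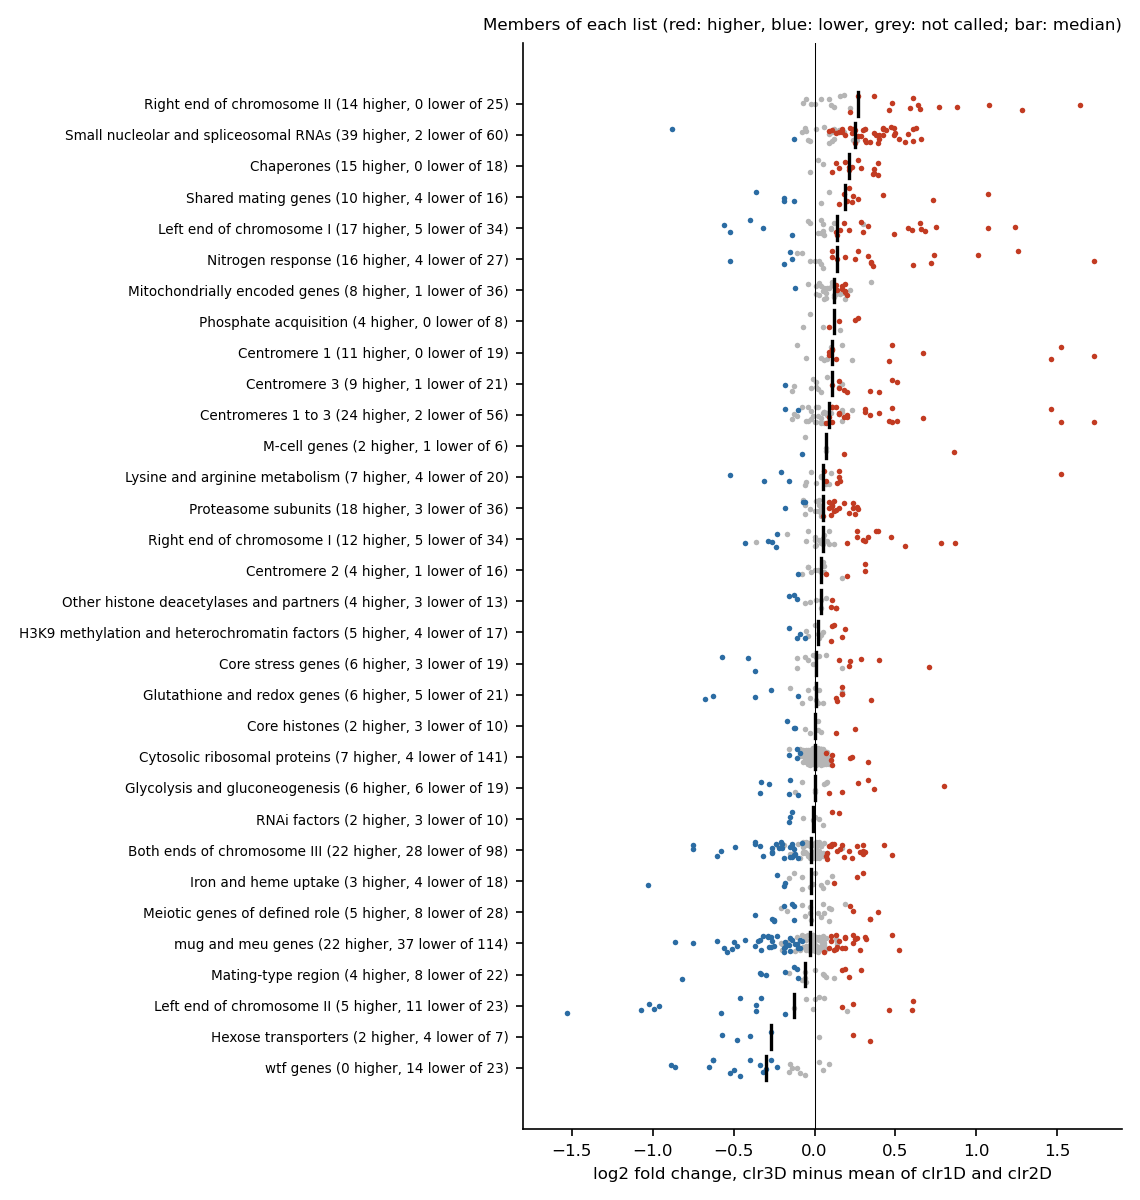
Log2 fold change of clr3D minus the mean of clr1D and clr2D (horizontal axis) for the tested members of each list of 6 to 141 genes (rows, ordered by their median, the black bar), with red for members called higher, blue for lower and grey for not called. Small nucleolar and spliceosomal RNAs (39 higher, 2 lower of 60) and chaperones (15 higher of 18) lie right of 0, and the wtf genes (14 lower of 23) left of it.

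Small nucleolar and spliceosomal RNAs, which guide and carry out RNA processing, were mostly higher in clr3D. Of 60 tested, 39 rose (65.0%) and 2 fell (3.33%), with a median log2 fold change of 0.25. The snoRNA snoR56 (I 5148474 to 5148555) was at 167, 167 and 143 in clr3D, against 101, 98.7 and 96.4 in clr1D, 115, 108 and 101 in clr2D, with 112, 135 and 138 in WT (0.61 ± 0.03, adjusted p = 1.7e-05). The clr3D libraries lay above all others, WT included. The snoRNA snoZ8 rose by 0.66 ± 0.07 and its neighbour snoZ7 by 0.61 ± 0.05. An exception was snoR54b, at 3.87, 4.25 and 2.79 in clr3D, against 6.4, 10.4 and 9.39 in clr1D and 4.62, 11.6 and 4.93 in clr2D (-0.88 ± 0.18, adjusted p = 0.0041). Of the 226 other tested genes under 300 bases, 49 rose and 29 fell, with a median of 0.05, beside 25.0% rises and 24.5% falls over all genes tested.

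Among the factors of silencing themselves the differences were small. Of 17 genes for histone H3 methylation and heterochromatin factors 5 rose (29.4%) and 4 fell (23.5%), near the 25.0% and 24.5% over all genes tested. The called log2 fold changes lay between -0.16 and 0.19. Without clr3D replicate 1, or without clr2D replicate 1, 5 of them rose and none fell. The histone chaperone ATPase gene abo1 was at 36.5, 36.4 and 37.2 in clr3D, against 31.2, 31.9 and 32.6 in clr1D and 32.4, 32.6 and 32.2 in clr2D (0.19 ± 0.02, adjusted p = 0.00035). The methyltransferase gene clr4 and the HP1-family gene swi6 were not called, at -0.05 and 0.03. Of 10 RNAi genes 2 rose (20.0%) and 3 fell (30.0%), the largest change being that of the RNA-dependent RNA polymerase gene rdp1 (-0.16 ± 0.03, adjusted p = 0.0034). Of 13 other histone deacetylase genes and partners 4 rose (30.8%) and 3 fell (23.1%), also near the shares over all genes tested (2 rises and 1 fall without the replicate block). Among them hos2 fell by -0.16 ± 0.03.

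In the mating-type region of chromosome II, a silenced domain with the genes around it, 4 of 22 tested genes rose (18.2%) and 8 fell (36.4%), with a median of -0.06. Over all genes tested 25.0% rose and 24.5% fell. The flavin oxidoreductase gene SPBC23G7.10c (II 2118146 to 2119536) was at 8.6, 10.8 and 9.28 in clr3D, against 13.8, 18.4 and 14.1 in clr1D, 18.7, 23.1 and 19.4 in clr2D, with 13.6, 15.8 and 13.1 in WT. It was lower in clr3D than in every other library (-0.82 ± 0.03, adjusted p = 3.6e-06), and clr1D was lower than clr2D by 0.38 on the log2 scale (adjusted p = 0.0017). Other falls here came mainly from clr2D. One was the uncharacterised gene SPBC23G7.14, which was at 172, 152 and 193 in clr3D, against 156, 176 and 174 in clr1D and 240, 268 and 284 in clr2D. Its pooled log2 fold change of -0.30 ± 0.06 (adjusted p = 0.0044) stands for 0.02 against clr1D and -0.62 against clr2D, and it is not called with the shared coefficient (adjusted p = 0.24).

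In several falls the clr1D and clr2D means stood above the WT mean and the clr3D mean did not. The oxidoreductase gene SPBC115.03 (II 633724 to 635913) was at 21.7, 22.1 and 22.1 in clr3D, against 42.7, 43.2 and 45.3 in clr1D, 45.9, 41.5 and 44.9 in clr2D, with 25.8, 26.9 and 27.3 in WT (-0.97 ± 0.03, adjusted p = 1.7e-06). The ferric-chelate reductase gene frp2 (II 667125 to 668819) was at 5.15, 4.71 and 4.81 in clr3D, against 10.4, 11.7 and 12.6 in clr1D, 8.8, 12 and 10.9 in clr2D, with 4.9, 4.33 and 8.95 in WT (-1.03 ± 0.08, adjusted p = 6e-05). Iron and heme uptake genes did not follow frp2 as a group. Of 18, frp2 included, 3 rose (16.7%) and 4 fell (22.2%), beside 25.0% and 24.5% over all genes tested (1 rise and 3 falls without the replicate block). SPBC1773.12, annotated as a transcription factor, was at 1.15, 1.29 and 1.48 in clr3D, against 3.67, 2.82 and 3.73 in clr1D, 3.64, 2.92 and 3.74 in clr2D, with 2.07, 1.57 and 2.09 in WT (-0.93 ± 0.08, adjusted p = 9.4e-05). The overlapping SPNCRNA.1338 moved with it. The cell surface glycoprotein gene pfl7, chosen after its values were seen, was at 3.07, 3.45 and 2.61 in clr3D, against 5.88, 7.41 and 5.89 in clr1D, 6.1, 6.73 and 5.6 in clr2D, with 5.16, 5.78 and 5.33 in WT (-0.85 ± 0.05, adjusted p = 2e-05). The non-coding RNA SPNCRNA.293, which overlaps pfl7, had a like change (-0.87 ± 0.09).

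The pooled comparison also holds loci at which clr3D differed mostly from 1 of the 2 other strains. At the amine oxidase gene cao1 (I 2931763 to 2935115), chosen after its values were seen, the levels were 78.3, 82.2 and 80.5 in clr3D, against 32.0, 34.2 and 31.2 in clr1D and 69.4, 74.9 and 68.9 in clr2D, with 74.3, 81.2 and 75.1 in WT. The log2 fold change was 1.28 ± 0.03 against clr1D and 0.18 ± 0.03 against clr2D, and with the shared coefficient cao1 is not called (adjusted p = 0.094). The non-coding RNAs SPNCRNA.862 and SPNCRNA.863, which overlap each other on the same side of cao1, followed the same order. SPNCRNA.863 was at 419, 498 and 506 in clr3D, against 153, 196 and 201 in clr1D and 306, 416 and 397 in clr2D. The histidine synthesis gene his7 is the deletion marker of the clr2D strain, and stood at 139, 151 and 146 in clr3D, against 144, 154 and 147 in clr1D and 333, 354 and 340 in clr2D. Its pooled log2 fold change was -0.63 ± 0.02, and with the shared coefficient it is not called (adjusted p = 0.17).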

How the data were processed

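The authors deposited 1 table of FPKM values per gene and library. Per the submitters' processing notes, reads were aligned with GSNAP to build ASM294v2, and the counting program is not given in the sources used here. The table's 3 sample columns with no matching label were not used. Names came from the ASM294v3 annotation (6844 IDs matched, 4410 with a symbol).

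The 9 clr3D, clr1D and clr2D libraries were divided by their median ratio to the geometric mean over 6553 rows with FPKM of at least 1 in all 9. The 6665 rows with FPKM of at least 1 in 3 or more libraries were tested with limma 3.58.1 (R 4.3.3) on log2(scaled FPKM + 1), with 1 coefficient per genotype, a replicate block and eBayes with trend. The contrast was clr3D minus the mean of clr1D and clr2D. The fit was also run on simulated data in which far fewer genes changed than were called here, so nothing is concluded from that run. Below an upper limit of reads, FPKM times length gave whole reads (100% within 0.1 read plus an allowance for the rounding of FPKM), hence the depths. Python 3.11.15, pandas 2.3.3, NumPy 2.4.6 and matplotlib 3.10.9 were also used.

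Replicate numbers come from the titles and column names. Deviations from the group means correlated at 0.286 to 0.709 in 9 pairs of libraries with the same number and at -0.45 to 0.074 in 18 pairs with different numbers, so the numbers pair the samples.

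Named genes were the SHREC genes, tlh1 and tlh2, the 14 largest separated rises and falls, up to 4 called members of each list with the largest change, called genes near clr1, clr2 or clr3, and the 10 most abundant genes called with a log2 fold change of at least 0.5 in size. The rule gave 153 genes, and 17 were added after their values were seen. Among the added genes are SPAC212.06c, SPBC1289.14, SPNCRNA.1338, cao1, cbm1, ccc2, gdh2, gid2, pfl7, rpp202, rpt6, spk1, ssa1, uck2 and urg3. The comparison, members and lists were chosen with earlier results of these data known. Alternatives are given in the closing section.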

Additional observations from a re-analysis of the deposited data

Results flagged for a closer look

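The genes here differed between clr1D and clr2D in a test of that difference (limma, Benjamini-Hochberg adjusted p under 0.05), so that their pooled value averages unequal differences. Values are log2 fold changes of clr1D minus clr2D. At the deleted genes and the marker they were -2.01 for clr1 (adjusted p = 3.1e-07), 0.81 for clr2 (5.9e-06) and -1.20 for his7 (1.2e-07). Beside his7 they were -0.65 for the copper transporter gene ccc2 and -0.40 for gid2, and beside clr1 they were 0.29 for pth1, 0.31 for mhf1 and 0.45 for SPNCRNA.1569, with adjusted p between 9e-05 and 0.03.

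Beside centromere 1 the differences were -1.10 for per1, -2.09 for lys1 and -1.99 for prm1, and at the cao1 locus they were -1.11 for cao1, -1.10 for cbm1, -1.02 for SPNCRNA.862 and -1.02 for SPNCRNA.863. The highest adjusted p among these was that of cbm1 (0.00045). The cbm1 level was 51.1, 71.3 and 39.1 in clr3D, against 19.5, 35.0 and 22.1 in clr1D and 47.0, 73.7 and 45.7 in clr2D, with 138, 161 and 121 in WT. The peroxisomal import receptor gene pex7 gave -0.30 (adjusted p = 0.0039). In the mating-type region the differences were -0.38 for SPBC23G7.10c, -0.57 for the proteasome gene rpt6, -0.47 for SPBC23G7.13c, -0.48 for SPNCRNA.1488, -0.64 for SPBC23G7.14 and -0.64 for the ribosomal protein gene rpp202. Beside centromere 3 they were 0.30 for chk1 and 0.31 for meu27.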

How the results depend on the processing

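The pooled count of called genes stayed between 2255 (no replicate block) and 3399 (voom on recovered reads) under all alternatives run that keep every library, against 3301. Leaving out 1 library gave 2519 to 3125 genes in the pooled comparison, 2113 to 2996 for clr3D minus clr1D, 1768 to 2527 for clr3D minus clr2D and 30 to 38 for clr1D minus clr2D. Without the replicate block clr3D minus clr1D gave 1811 genes and clr3D minus clr2D 1553, and without clr2D replicate 1 clr3D minus clr2D gave 1768. The other counts over all genes stayed within 1.5 times. With FPKM as deposited 985 of 3030 genes were higher in clr3D than in clr1D (32.5%) and 1099 of 2735 higher than in clr2D (40.2%). Over 169 named and tested genes and all alternatives, 3042 of 3202 values kept their direction and their side of the threshold, 156 were no longer called, 3 became called, and 1 reversed: mit1, not called either way, at 0.03 with quantile normalization (adjusted p = 0.45) against -0.01. Of 36 mitochondrially encoded genes 8 rose (22.2%) and 1 fell (2.78%), beside 25.0% and 24.5% over all genes tested. These counts rested on single choices, with 1 and 0 without the block and 15 and 1 with voom. The edgeR and DESeq2 alternatives were not run, because the deposited values are FPKM, and voom used median-ratio library sizes in place of TMM. The cause of these changes was not tested. Depth is a reconstruction from FPKM. Few reads stand behind values of short transcripts near the minimum level and behind values far below it.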

Other observations

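Carbon metabolism held changes in both directions. Of 19 glycolysis and gluconeogenesis genes 6 rose in clr3D (31.6%) and 6 fell (31.6%), beside 25.0% and 24.5% over all genes tested. The glyceraldehyde phosphate dehydrogenase genes went opposite ways. The level of gpd3 was 328, 279 and 349 in clr3D, against 216, 131 and 177 in clr1D, 221, 147 and 223 in clr2D, with 279, 303 and 379 in WT (log2 fold change 0.80 ± 0.07, adjusted p = 0.00013). The far more abundant tdh1 was at 8098, 8860 and 8201 in clr3D, against 9219, 11448 and 10517 in clr1D, 9962, 12279 and 10469 in clr2D, with 9783, 11785 and 10840 in WT (-0.34 ± 0.05, adjusted p = 0.00095). The malic enzyme gene mae2 rose by 0.53 ± 0.05 and the hexokinase gene hxk2 by 0.37 ± 0.03. Of 7 hexose transporter genes 2 rose (28.6%) and 4 fell (57.1%), or 2 and 2 without the replicate block. The transporter gene ght2 was at 46.3, 49.4 and 41.5 in clr3D, against 38.7, 35.9 and 31 in clr1D and 39.4, 36.0 and 34.6 in clr2D, and ght1 at 2.63, 1.98 and 2.01 in clr3D, against 4.51, 4.19 and 2.83 in clr1D and 3.75, 4.17 and 3.14 in clr2D.

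Level moved with direction. Of 1140 genes with a mean level over 100, 422 rose in clr3D and 132 fell, and of 4512 genes between 10 and 100, 1145 rose and 1144 fell. Of 1441 non-coding RNAs 311 rose (21.6%) and 395 fell (27.4%), near the 25.0% and 24.5% over all genes tested (193 and 265 without the replicate block). Those that overlap another gene had 286 rises and 353 falls among 1276, and those that do not had 25 and 42 among 165. Of 114 mug and meu genes, named for their rise in meiosis, 22 rose (19.3%) and 37 fell (32.5%). The gene meu3 was at 2.96, 3.11 and 3.67 in clr3D, against 6.22, 5.21 and 7.27 in clr1D, 6.53, 5.54 and 6.23 in clr2D, with 1.41, 2.45 and 2.37 in WT (-0.75 ± 0.07, adjusted p = 0.00012).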
